A study of Mus musculus with 2 samples.

Results

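The nuclei described here were selected on measured values, by the summed unique molecular identifiers (UMIs) of *Scara5*, *Abi3bp*, *Gpc3*, *Itgbl1*, *Ebf2* and *Pdgfra*, genes of fibroblasts in the sheaths of the vagus nerve ganglia. A nucleus was taken when this sum was at least 4 UMIs and at least 15 per 10000 UMIs, was not below the sum of *Col25a1*, *Slc47a1*, *Slc26a7*, *Rspo3* and *Adamtsl3*, and came with at most 2 UMIs of *Slc6a20a*, *Ranbp3l* and *Slc6a13* together. Of 8714 nuclei, 1027 met the rule, or 11.8% (95% Clopper-Pearson interval 11.1 to 12.5). They are called the *Ebf2*/*Abi3bp* nuclei below, after *Ebf2* and *Abi3bp*, each with a UMI in most of them, and members in the plots.

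The study profiled nuclei of jugular and nodose ganglia, the sensory ganglia of the vagus nerve, from *Rosa26*-floxed-STOP-Cas9-eGFP mice on a C57BL/6J background that were bought at 8 to 9 weeks of age, fed standard chow and given a retrograde adeno-associated virus carrying Cre into the liver. Ganglia were collected 4 weeks after the injection, and 14 ganglia of 7 females and 16 ganglia of 8 males were pooled into 1 library of each sex. Every mouse carried the same allele and virus, so the design held no untreated group, and the virus was delivered to nerve endings in the liver and not to the ganglion itself. The female library held 3791 nuclei with 17435300 UMIs (median 2381 per nucleus) and the male library 4923 nuclei with 27529730 UMIs (median 2658). With 1 library per sex there was no test between them, and sex, pool of mice and library cannot be told apart. All intervals below are 95% intervals that cover counting error only.

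A peripheral nerve and its ganglia are wrapped in connective tissue layers. Endoneurial fibroblasts lie among the axons inside a fascicle, perineurial cells form a sleeve of flat cells joined by tight junctions around it, and epineurial fibroblasts, adipocytes and vessels lie in the loose tissue outside. These cells make collagens, laminins and proteoglycans, and the perineurium limits what passes from the blood and surrounding tissue into the fascicle.

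Females contributed 541 of the *Ebf2*/*Abi3bp* nuclei, 14.3% (13.2 to 15.4) of their library, and males 486, which was 9.87% (9.05 to 10.7). Without members in which markers of another cell type exceeded the rule genes, the shares were 9.81% and 3.21%, and for the clusters 1 to 3 described below they were 10.1% and 8.29%. They held 1628724 and 1169840 UMIs in all, with a median of 2260 and 2144 UMIs per nucleus. The share differed more among deeply sequenced nuclei. Below 1500 UMIs it was 14.7% for females and 13.6% for males, with overlapping intervals (12.3 to 17.5 and 10.7 to 16.8), while from 3000 to 5000 UMIs it was 14.8% (12.3 to 17.7) and 8.33% (6.60 to 10.3), and above 5000 UMIs 7.89% (6.03 to 10.1) and 1.44% (0.856 to 2.27). Of the 8 barcodes that occurred in both libraries, 2 belonged to female and 1 to male *Ebf2*/*Abi3bp* nuclei.

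At the edge of the rule, 91 nuclei were taken with exactly 4 UMIs of the 6 genes and 73 nuclei with 3 UMIs that met every other limit were not. Likewise 84 members had 15 to 20 per 10000 UMIs and 89 nuclei had 10 to 15, and 38 members had 2 UMIs of the barrier genes where 20 further nuclei had 3. The sum had a median of 12 UMIs in female members and 8 in male ones. Of all members, 27 had a UMI of all 6 genes and 83 of 1 gene only, in 50 of these *Ebf2*.

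Each of the 6 genes is given with its level in the members, as UMIs per 10000 UMIs summed over nuclei, and its position in mm10 from the GENCODE annotation. *Ebf2* (chr14:67233292-67430918), a transcription factor of fibroblast and brown adipocyte lineages, had 21.8 (21.1 to 22.6) in the female and 16.5 (15.8 to 17.2) in the male members. *Itgbl1* (chr14:123659971-123975618), a secreted integrin-like protein, had 8.60 (8.16 to 9.06) and 7.86 (7.36 to 8.39). For *Abi3bp* (chr16:56477878-56690135), a matrix protein, the levels were 7.61 (7.19 to 8.04) and 6.77 (6.31 to 7.26). The log2 ratio of the male over the female members was -0.41 (-0.49 to -0.33) for *Ebf2*, -0.17 (-0.30 to -0.04) for *Abi3bp* and -0.13 (-0.25 to -0.01) for *Itgbl1*. *Gpc3* (chrX:52272426-52613950), a glypican of the cell surface, had 7.18 (6.77 to 7.60) and 7.11 (6.64 to 7.61). *Scara5* (chr14:65666403-65764826), a scavenger receptor that binds ferritin, had 1.92 (1.71 to 2.14) and 1.58 (1.36 to 1.83). *Pdgfra* (chr5:75152292-75198215), the receptor for platelet-derived growth factor used to mark fibroblasts, had 1.57 (1.38 to 1.77) and 1.63 (1.41 to 1.88). Of these, the ratio of *Scara5* was -0.28 (-0.55 to -0.01), beyond counting error, and those of *Gpc3* (-0.01, -0.14 to 0.12) and *Pdgfra* (0.06, -0.22 to 0.34) were within it. These values chose the nuclei and are a description. They pool all members, also those with RNA of other cell types that are described below.

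**Figure D1:**
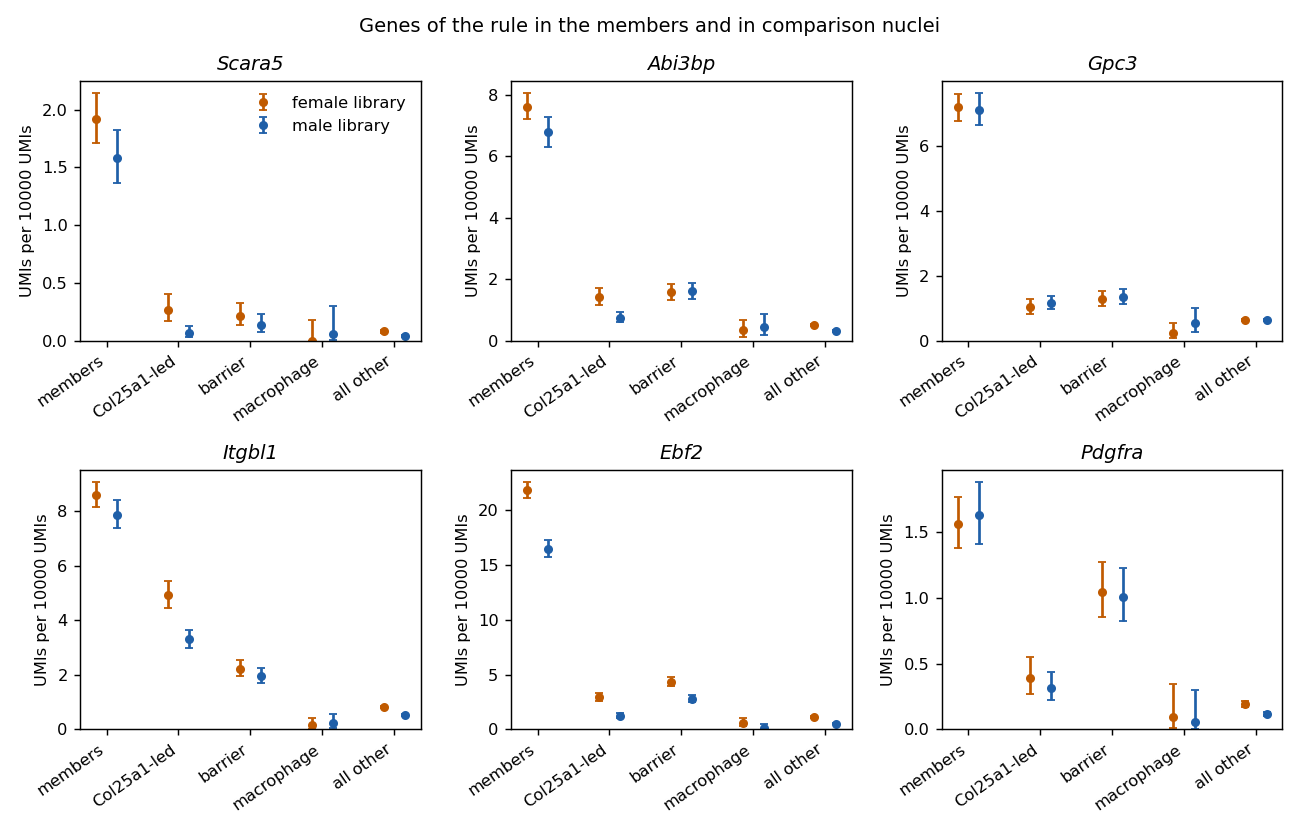
Level of each gene of the rule (UMIs per 10000 UMIs summed over nuclei, linear axes from 0) in the members, in *Col25a1*-led, barrier and macrophage nuclei and in all nuclei outside the members, with points for the 2 libraries and bars for exact Poisson intervals. The members sit highest for every gene because the genes chose them, and *Pdgfra* in barrier nuclei, at 1.03 over both libraries, comes nearest to the members.

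Single genes of the rule were seen in very different shares of the nuclei. *Ebf2* had a UMI in 88.7% of female and 89.1% of male members and *Abi3bp* in 71.9% and 70.4%, but *Scara5* in 27.5% and 20.2% and *Pdgfra* in 27.9% and 23.7%. With each nucleus thinned to 1000 UMIs, *Scara5* was seen in 17.9% and 12.8%, and *Ebf2* in 75.4% and 73.3%. Macrophage nuclei were chosen by *Mrc1*, *F13a1*, *Cd163*, *Csf1r* and *Ptprc* (median 1857.5 UMIs for females and 1885.5 for males). They were also required to have fewer summed UMIs of the rule genes than the minimum for members. Their low detection of the rule genes was thus partly set by this choice and is not an independent background. *Scara5* was seen in 0 of 98 female and 1.16% of 86 male macrophage nuclei, and *Ebf2* in 10.2% and 3.49%. The 0 of 98 allows a share of nuclei with a UMI, not of nuclei expressing the gene, of up to 3.06%. Most members carried no UMI of *Scara5*, and a name taken from it would describe a minority of them.

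To see how the members differ among themselves, they were clustered on genes outside every gene list used below and not shifted 2-fold between the libraries in other nuclei. This gave 7 clusters, described here without a test, and clusters 1 to 3 held 790 of the members. Cluster 1 held 432 nuclei, 203 female (37.5% of the female members, 33.4 to 41.8) and 229 male (47.1%, 42.6 to 51.7). Cluster 2 held 263, 112 female (20.7%, 17.4 to 24.4) and 151 male (31.1%, 27.0 to 35.4). Cluster 3 held 95, 67 female (12.4%, 9.73 to 15.5) and 28 male (5.76%, 3.86 to 8.22). These shares sum to 100% within each library's members. As a share of all nuclei of a library, cluster 1 took 5.35% (4.66 to 6.12) of the female and 4.65% (4.08 to 5.28) of the male nuclei, cluster 2 took 2.95% (2.44 to 3.54) and 3.07% (2.60 to 3.59), and cluster 3 took 1.77% (1.37 to 2.24) and 0.569% (0.378 to 0.821). The intervals overlapped for clusters 1 and 2 and did not for cluster 3. The remaining clusters 4 to 7 held 88, 73, 44 and 32 nuclei, and their leading genes were those of other cell types. Levels over all members sum UMIs, so deep nuclei weigh more in them. Cluster 4 held 460471 of the 1628724 UMIs of female members and 93700 of the 1169840 of male members. Levels and library ratios over all members thus include these clusters in unlike parts.

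**Figure D2:**
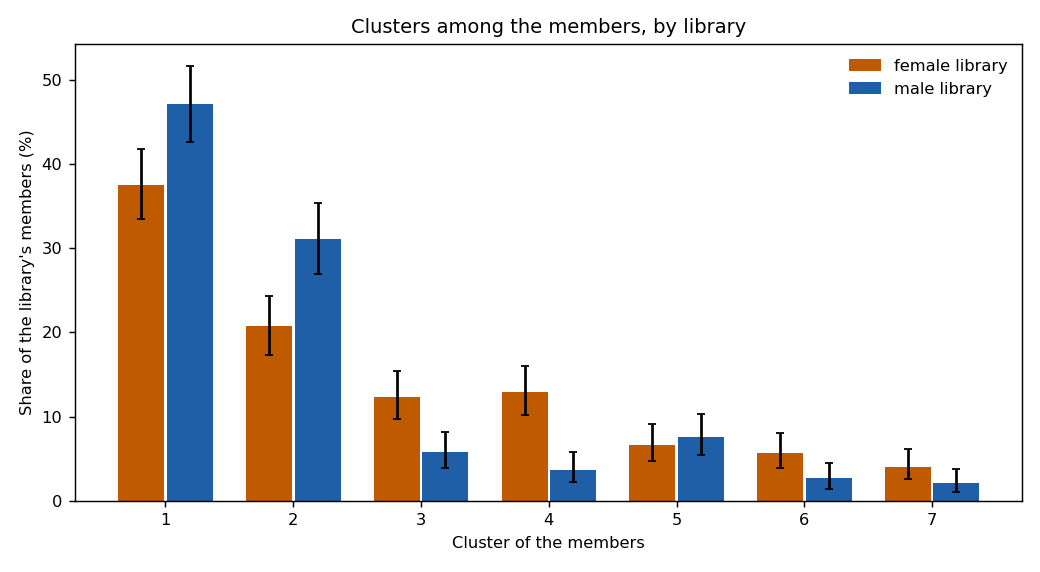
Share of each library's *Ebf2*/*Abi3bp* nuclei in the 7 clusters, in percent, with Clopper-Pearson intervals as bars. Clusters 1 and 2 make a larger share of the male members, and clusters 3 and 4 of the female members, at 12.4% and 12.9% against 5.76% and 3.70%.

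Cluster 1 was led by the list of perineurial genes, none of which had been used to form it. Of the 11 genes of that list, 9 were at least 1.5-fold above the mean of the other clusters. The summed level of all 11 was 62.7 (60.4 to 65.1) in the female and 49.9 (47.9 to 51.8) in the male nuclei, against at most 31.4 in any other cluster. *Tenm2* had the most UMIs of the list in every cluster. The list of barrier and meningeal fibroblast genes was also higher in cluster 1, with 10 of 14 genes at least 1.5-fold above that mean (mean log2 fold 0.82) and a summed level of 34.7 and 34.4, although the sum was larger in cluster 6, at 41.7 and 37.7. *Cldn1*, the claudin of perineurial tight junctions, had 2.86 in the female and 2.14 in the male nuclei of cluster 1 and at most 0.481 in clusters 2 and 3. *Itgb4*, a laminin receptor subunit, had 5.28 and 3.72 in cluster 1, but 0.0899 and 0.136 in cluster 2. *Slc2a1*, the glucose transporter GLUT1 of barrier cells, had 1.62 and 1.41 against 0.135 and 0.170. The tight junction genes *Ocln* (83 UMIs in cluster 1, 1 in cluster 2 and none in cluster 3) and *Tjp1* (8.24 and 5.47 in cluster 1) stood out in the same nuclei. In contrast, *Scara5* was almost absent from the largest cluster, with 12 UMIs over its 432 nuclei, or 0.206 and 0.0588 per 10000 UMIs, and *Pdgfra* had 0.458 and 0.353. Most UMIs of the rule genes in these nuclei were of *Ebf2* (29.3 and 18.2) and *Itgbl1* (15.6 and 12.8), followed by *Abi3bp* (8.56 and 7.33) and *Gpc3* (4.96 and 4.84).

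The transcription factor *Bnc2* had 64.8 in the female and 43.5 in the male nuclei of cluster 1, and 8.68 and 5.83 in cluster 2. Genes of hedgehog signalling, a pathway that Schwann cells use to instruct the perineurium, were chosen after their values were seen. *Ptch1*, the hedgehog receptor and a target of the pathway, had 16.7 and 13.8 in cluster 1, 7.24 and 3.85 in cluster 2, and 1.69 and 1.93 in cluster 3. *Gli1*, its transcription factor and target, had 1.03 and 1.18 in cluster 1 and 0.450 and 0.852 in cluster 2. Clusters 1 to 3 thus had the same order for *Ptch1* in both libraries, while for *Gli1* with 60 and 25 UMIs in the male nuclei the distance was small. *Ntng1*, a netrin-like guidance protein, had 18.0 and 16.2 in cluster 1 and at most 7.20 in any other cluster of either library. *Thbs4*, a thrombospondin of tendon and nerve matrix, had 2.17 and 2.53 in cluster 1 and no UMI in cluster 3.

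Cluster 2 was led by the list of endoneurial fibroblast genes. Of its 10 genes, 7 were at least 1.5-fold above the mean of the other clusters. The summed level was 48.5 (45.7 to 51.5) in the female and 33.0 (30.9 to 35.1) in the male nuclei. Cluster 1 had 8.85 and 7.33, and cluster 5, the nearest, 18.4 and 20.5. The ATP-binding cassette transporter *Abca8a* had 25.4 and 18.1 in cluster 2, 1.90 and 1.29 in cluster 1, and 9.16 and 6.42 in cluster 3. *Abca9* followed with 7.24 and 4.63 in cluster 2, and *Abca6* with 16.5 and 12.2, where cluster 1 had 0.549 and 0.235 of *Abca6*. *Osr2*, a transcription factor of endoneurial fibroblasts, was rare, with 34 UMIs in cluster 2, 1 in cluster 1 and none in cluster 3. *Wif1*, a Wnt inhibitor of the same list, had no UMI in any member.

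Matrix genes differed between the clusters as well. *Lama2*, the laminin chain deposited around Schwann cells, had 54.9 and 41.7 in cluster 2, 13.7 and 10.2 in cluster 1 and 13.6 and 7.06 in cluster 3. *Col15a1*, a basement membrane collagen, had 11.2 and 7.43 in cluster 2 and at most 0.321 in clusters 1 and 3. *Dcn*, the proteoglycan decorin, was spread more evenly, at 41.3 and 29.4 in cluster 2, 22.2 and 18.5 in cluster 1 and 18.9 and 12.7 in cluster 3. Of the rule genes, *Gpc3* had its highest levels here, 23.0 and 12.7, and *Scara5* had 5.22 and 3.92 and *Pdgfra* 5.08 and 4.87.

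Cluster 3 was led by the list of epineurial and adventitial fibroblast genes, of whose 17 genes 11 were at least 1.5-fold above the mean of the other clusters. The summed level was 24.8 (22.3 to 27.5) in the female and 20.1 (16.7 to 23.9) in the male nuclei. It was 6.25 in cluster 1 in each library, and at most 14.1 and 10.6 in any other cluster. *Pi16*, a marker of adventitial fibroblasts, had 2.89 and 1.93, from 53 UMIs, where clusters 1 and 2 had 3 and 4 UMIs. *Dpp4*, another gene of such cells, had 1.13 and 1.28 in cluster 3 but also 0.630 and 0.579 in cluster 2, so it separated the clusters less. *Col14a1*, a collagen of loose connective tissue, had 9.37 and 3.69 in cluster 3 and at most 1.11 in every other cluster. The fibrillar collagen gene *Col3a1* had 13.5 and 11.7 in cluster 3, 9.04 and 5.93 in cluster 2 and 3.32 and 2.10 in cluster 1. *Igfbp5*, a secreted binding protein of insulin-like growth factors, had 26.1 and 38.7 in cluster 3 and at most 4.66 elsewhere. *Scara5* was highest in this cluster at 6.83 and 5.13, and *Itgbl1* had 16.8 and 15.4, near its level in cluster 1.

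**Figure D3:**
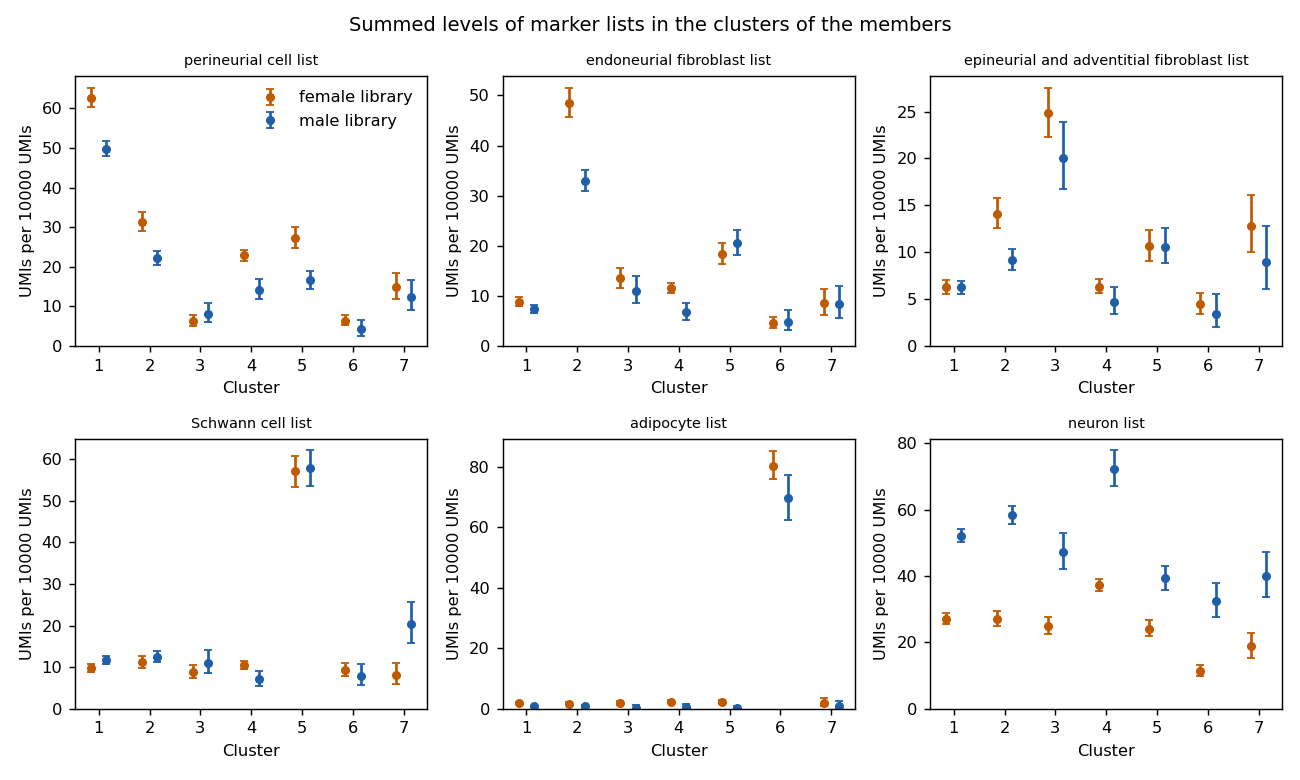
Summed level of 6 marker lists (UMIs per 10000 UMIs, linear axes from 0) in the 7 clusters, with points for the 2 libraries and exact Poisson intervals. The perineurial, endoneurial and epineurial lists peak in clusters 1, 2 and 3, the Schwann cell list in cluster 5 and the adipocyte list in cluster 6, and the neuron list is higher in the male nuclei of every cluster.

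The other clusters held nuclei with RNA of other cell types beside the rule genes. Cluster 5 (36 female and 37 male nuclei, median 3218 UMIs) had 57.0 of the Schwann cell list in the female and 57.7 in the male nuclei, against 9.79 and 11.7 for the list in cluster 1, and 34.3 and 35.2 of the satellite glia list, against 10.1 and 12.5. Cluster 6 (31 female and 13 male) was adipocyte-like, with 9 of 10 adipocyte markers at least 1.5-fold above the mean of the other clusters, and *Pparg*, the regulator of fat cell differentiation, at 44.3 and 41.3. Its *Ebf2* level was 25.2 over both libraries, while *Scara5* had 0.468 in the female nuclei and no UMI in the male ones. Cluster 7 (22 female and 10 male) had 29.3 and 19.4 of the endothelial and 19.2 and 20.6 of the mural cell list, with 1.42 of the macrophage list in its female and 13.6 in its male nuclei, and was left unnamed. Cluster 4 (70 female and 18 male, median 3996 UMIs) had *Kcnd2* and *Dab1*, genes of neurons, among its leading genes. *Kcnd2*, a potassium channel of granule cells and other neurons, had 33.8 in its female and 1.28 in its male nuclei, so this cluster did not look alike in the 2 libraries. The cerebellar granule cell list stood at 9.56 and 5.02 in cluster 4, with 7 of 10 genes at least 1.5-fold above the mean of the other clusters (mean log2 fold 1.88), and the neuron list at 37.2 and 72.4, with 7 of 15 (0.55). Whether such nuclei are doublets, carry free RNA or express the rule genes themselves was not tested.

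**Figure D4:**
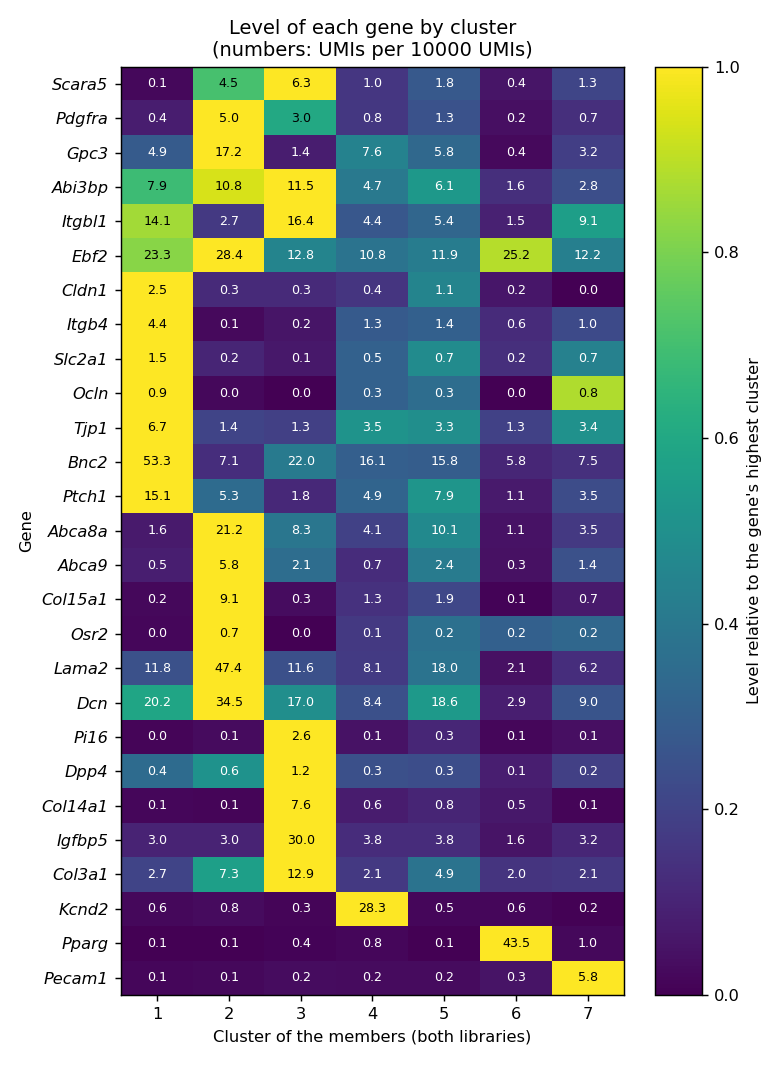
Level of 27 genes in the 7 clusters, both libraries together, printed in each cell as UMIs per 10000 UMIs and coloured relative to the cluster where the gene is highest. *Cldn1* and *Itgb4* are highest in cluster 1, *Abca8a* and *Col15a1* in cluster 2, *Pi16* and *Col14a1* in cluster 3, and *Pparg* in cluster 6.

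Markers of other cell types exceeded the rule genes in many members. The summed UMIs of the neuron list were above the 6 rule genes in 416 members, 108 female and 308 male, those of the Schwann cell list in 72, of satellite glia in 67, of adipocytes in 41, of endothelial cells in 16, of mural cells in 9, of cerebellar granule cells in 5 and of macrophages in 3. The neuron list stood at 27.8 in the female and 52.5 in the male members, against 47.8 and 64.4 in all other nuclei and 25.6 and 56.5 in macrophage nuclei, and its most abundant gene in the members was *Uchl1*. The members thus carried about as much of the neuron list as macrophage nuclei of the same library, and none of its 15 genes was at 0. For the Schwann cell list the members stood at 14.7 and 16.6 (macrophage nuclei 10.1 and 22.3), and for the adipocyte list at 9.19 and 3.62 (2.56 and 1.08, most abundant gene *Pparg*), with 1 marker at 0. Satellite glia markers stood at 14.5 and 15.9 (10.2 and 18.8, *Apoe*), endothelial markers at 3.33 and 2.15 (1.23 and 0.863, *Cdh5*), mural cell markers at 3.06 and 3.18 (0.852 and 1.51, *Cspg4*), and granule cell markers at 5.65 and 4.16 (3.27 and 2.32, *Etv1*). Macrophage markers were at 1.48 and 1.32 in the members and 70.7 and 52.6 in the macrophage nuclei. Over all other nuclei, 7 of 9 measured adipocyte markers were 2-fold higher in the members and 0 lower, beside 9.18% and 5.32% of all genes. Their summed level, however, was 80.3 and 69.5 in cluster 6 and at most 2.32 and 0.870 in any other cluster, beside 2.50 and 0.929 in all other nuclei. In contrast, 0 of 15 neuron markers were higher and 5 lower, beside the same shares of all genes. The part of this RNA in the results below was not tested.

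Against all 7687 other nuclei, 1381 of 17097 genes with at least 50 UMIs (8.08%) were at least 2-fold higher in the members and 2233 (13.1%) at least 2-fold lower. The rule used this contrast, so the counts are a description. The log2 ratio of the median gene was 0.14 above 0 over the 12027 genes with at least 20 UMIs in the members, and of these genes 9.18% were 2-fold higher and 5.32% lower.

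The 20 genes of highest ratio over all other nuclei had log2 ratios from 3.10 to 4.70 among female nuclei and from 3.20 to 5.02 among male ones. *Pax9*, a paired-box factor of embryonic connective tissue, had 0.473 in the female and 0.393 in the male members against 0.0235 in all other nuclei, a log2 ratio of 4.23. *Meox2*, a homeobox factor of mesoderm, had 1.08 and 1.15 against 0.0728 (3.93), and *Gli1* and *Gli2* had log2 ratios of 3.91 and 3.74. *Etv4*, an ETS factor, had 3.55. Of matrix genes, *Thbs4* had 1.09 and 1.36 against 0.0657 (4.19), *Vit*, which encodes vitrin, 3.81 and 3.76 against 0.291 (3.70), and *Col15a1* 2.22 and 2.27 against 0.193 (3.53). *Cldn1* followed with 1.07 and 1.17 against 0.0775 (3.84). *Gfpt2*, an enzyme of hexosamine synthesis, had 0.755 and 0.624 (3.78), and *Nox4*, an NADPH oxidase, 1.14 and 0.692 (3.56), of which cluster 3 held most. *Grin2b*, a glutamate receptor subunit known from neurons, was also in this set, at 1.81 and 1.60 against 0.105 (4.04). *Lvrn*, an aminopeptidase, had 0.516 and 0.462 (4.16). The remaining genes were *1700120O09Rik*, *4930438E09Rik*, *Gm6878*, *9630002D21Rik*, *9130410C08Rik*, *Gm12830* and *A530053G22Rik*, for which no function is given here. The ratio of *A530053G22Rik* (3.74) came from the adipocyte-like cluster 6, and in clusters 1 to 3 alone it was -0.45.

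The lists of extracellular matrix genes were higher in the members than in all other nuclei by count and by median. The counts stand beside 9.18% of all genes higher and 5.32% lower at the same limit of 20 UMIs. Of 9 fibrillar collagen genes measured (at least 20 UMIs in the members), 5 were 2-fold higher than in all other nuclei and 1 lower, with a median log2 ratio of 1.78. *Col3a1* had 4.89 in the female and 3.52 in the male members against 0.571 (2.92), *Col1a2* 3.48 and 3.18 against 0.977 (1.78), and *Col5a2* and *Col1a1* had log2 ratios of 2.11 and 2.16. Of 21 other collagens 14 were higher and 0 lower (median 1.30), among them *Col6a3* (2.79) and *Col8a1* (2.24). Of 18 proteoglycans 13 were higher and 1 lower (median 1.86), led by *Dcn*, which binds collagen fibrils, at 18.5 and 18.7 against 2.27 (3.03). *Gpc6*, the glypican with the most UMIs, had 25.3 and 18.1 against 7.14 (1.64). Of 26 adhesive matrix proteins and laminins, 18 were higher and 0 lower (median 1.47). *Lama2* had 17.1 and 17.7 against 2.84 (2.61), and *Smoc2* a log2 ratio of 3.32. Of 17 genes of elastic fibres and crosslinking 9 were higher and 0 lower (median 1.10), with *Fbn1*, the microfibril protein, at 4.11 and 2.94 against 0.633 (2.52) and *Ltbp1*, which stores latent TGF-beta, at 1.83 and 1.67 against 0.179 (3.30). Of 25 matrix proteases and inhibitors 11 were higher and 1 lower (median 0.74), with *Adamts12* at 3.77 and 2.45 against 0.366 (3.14), while the inhibitor *Timp3* stood at 2.41 and 1.85 against 2.33 (-0.10).

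The lists that lead clusters 1 to 3 were higher in the members as a whole as well, beside 9.18% of all genes higher and 5.32% lower. Of 9 measured perineurial genes 7 were 2-fold higher and 0 lower (median 1.95), and of 8 endoneurial genes 6 and 0 (median 2.08). Of 16 epineurial and adventitial genes 10 were higher and 0 lower (median 1.39), although *Limch1* (-0.38) and *Cd55* (-0.08), which are among the 4 with the most UMIs, were not. Of 36 transcription factors of fibroblasts 22 were higher and 0 lower (median 1.75). *Bnc2* had 28.0 and 24.3 against 4.89 (2.44) and *Nfia* 17.9 and 14.0 against 5.36 (1.60), while *Ebf1* at 21.3 and 15.8 against 17.0 (0.16) differed little. Of 11 genes of barrier and meningeal fibroblasts 4 were higher and 1 lower (median 0.72), the last being *Trpm3*, a cation channel, at 9.65 and 10.7 against 21.0 (-1.06).

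Signalling lists were mixed. Of 30 Wnt genes 11 were 2-fold higher than in all other nuclei and 2 lower (median 0.79), led by the receptor *Ror1* at 7.31 and 7.22 against 0.790 (3.20). Of 39 TGF-beta and BMP genes 12 were higher and 0 lower (median 0.62), with the procollagen protease *Bmp1* at a log2 ratio of 2.75. Of 52 growth factor and receptor genes 16 were higher and 3 lower (median 0.21). The receptor *Egfr* had 5.40 and 5.12 against 0.614 (3.10). Of 41 axon guidance genes 8 were higher and 8 lower (median -0.07), beside 9.18% and 5.32% of all genes. Of 28 complement and cytokine genes 15 were higher and 0 lower (median 1.10), with the complement protease *C1s1* at 3.46 and the alarmin *Il33* at 0.780 and 0.949 against 0.141 (2.59). Of 33 hormone and nuclear receptor genes 13 were higher and 1 lower (median 0.82), with *Ghr*, the growth hormone receptor, at 5.64 and 3.58 against 1.97 (1.28).

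Among the smaller lists, 3 of 9 ABCA transporters were 2-fold higher and 0 lower (median 0.49), and 4 of 19 iron handling genes were higher and 0 lower (median 0.31), with the ferroxidase *Cp* at 4.22 and 4.45 against 1.07 and highest in cluster 2, at 10.8 and 9.54. Of 21 immediate early and stress genes 4 were higher and 0 lower (median 0.34). Over all genes 9.18% were higher and 5.32% lower. None of 13 mitochondrially encoded genes was 2-fold apart (median 0.59), and *mt-Co3* stood at 31.7 and 35.1 against 21.4.

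A nearer comparison was with 597 nuclei led by *Col25a1*, *Slc47a1*, *Slc26a7*, *Rspo3* and *Adamtsl3* (214 female, 383 male), fibroblast-type nuclei that the rule kept apart. Of 10771 genes with at least 50 UMIs, 626 (5.81%) were 2-fold higher in the members and 392 (3.64%) lower. Over the genes with at least 20 UMIs in the members these shares were 7.61% and 2.85%. All 3 lists of sheath layers were higher than in the *Col25a1*-led nuclei. Of 9 perineurial genes 8 were higher and 0 lower (median log2 ratio 2.05), of 8 endoneurial genes 7 and 0 (1.93), and of 16 epineurial genes 9 and 0 (1.38). Of the matrix lists, 15 of 26 adhesive matrix proteins and laminins were higher and 1 lower (median 1.13). Their summed level was 47.4 in the female and 44.8 in the male members against 23.7 and 18.3 in the *Col25a1*-led nuclei. Of 18 proteoglycans 10 were higher and 1 lower (median 1.05), with sums of 54.9 and 47.6 against 38.8 and 34.1. Of 17 elastic fibre genes 6 were higher and 0 lower, and of 9 fibrillar collagens 4 and 0 (both medians 0.76). Of 21 other collagens 10 were higher and 4 lower (median 0.78), with sums of 17.8 and 15.6 against 24.8 and 17.5. Of 25 matrix proteases and inhibitors 5 were higher and 5 lower (median 0.24), with sums of 20.7 and 18.0 against 24.8 and 21.8. The transcription factors did not lean one way, with 9 of 36 higher and 8 lower (median -0.08).

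Ordered by the interval bound nearer 0, the genes most above the *Col25a1*-led nuclei were *A530053G22Rik*, *Adtrp*, *Lvrn*, *Thbs4*, *Abca6*, *Gm44079*, *Pparg*, *Cldn1*, *Col15a1* and *A230001M10Rik*. *Thbs4* had a log2 ratio of 4.60, *Abca6* of 4.12 and *Col15a1* of 3.73. *Pparg* (3.86), *A530053G22Rik* (6.79), *Adtrp* and *Gm44079* belong to the adipocyte-like cluster 6, where the levels of *Pparg* and *A530053G22Rik* were 43.5 and 7.19 over both libraries and which held 70 of 75 UMIs of *Adtrp* and 84 of 86 of *Gm44079*. The genes most below were *Gm49497*, *Slc47a2*, *Gm6260*, *Slc4a10*, *Gm5860*, *Gm26740*, *Gpc5*, *Vsx1*, *Gm37853* and *Slc9b2*. *Slc47a2*, an organic cation exporter, had a log2 ratio of -5.01, *Slc4a10*, a bicarbonate transporter, -4.32, and *Gpc5*, a glypican, -4.05. *Slc4a10* was nevertheless present in cluster 3, at 10.9 over both libraries.

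Against 564 barrier nuclei (249 female, 315 male), the meningeal type defined by *Slc6a20a*, *Ranbp3l* and *Slc6a13*, 725 of 10838 genes (6.69%) were 2-fold higher in the members and 527 (4.86%) lower, and over the genes with at least 20 UMIs in the members 8.36% and 3.7%. Of the 11 measured genes of the barrier and meningeal list 8 were lower and 1 higher (median log2 ratio -1.57), and their summed level was 27.4 and 24.9 in the members against 370 and 333 in the barrier nuclei. Of 8 endoneurial genes 6 were higher and 0 lower (2.36), of 9 perineurial genes 5 and 1 (1.39), and of 16 epineurial and adventitial genes 8 and 2 (1.02). The summed level of the epineurial and adventitial list was 9.46 and 8.03 in the members and 8.72 and 8.04 in the barrier nuclei. *9630002D21Rik* (7.16), *Sorcs3* (5.66), *Pax9* (5.45), *Thbs4* (4.58), *Pparg* (4.48), *Bmpr1b* (4.25), *Nox4* (4.24) and *Ntn4* (4.08) were among the 10 genes most above barrier nuclei, with *Nrg4* and *Gm44079*. Of these, *Pparg*, *Nrg4* and *Gm44079* lay in the adipocyte-like cluster 6, which held 866 of 945 UMIs of *Pparg*, 246 of 266 of *Nrg4* and 84 of 86 of *Gm44079*. *Bmpr1b*, a BMP receptor, had 1.82 in the female and 1.58 in the male members, and *Ntn4*, a netrin of basement membranes, 1.95 and 1.55. The genes most below were *Atp13a5* (-6.69), *Slc13a3* (-6.01), *Slc16a12* (-5.92), *Serpina1b*, *Gm27151*, *Trpm3* (-4.68), *Aifm3*, *Zkscan2*, *Aldh1a2* (-4.77) and *Dapl1*, of which *Aldh1a2* makes retinoic acid in meninges.

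Between the libraries, 557 of 8890 genes with at least 50 UMIs in the members (6.27%) were 2-fold higher in the male members and 418 (4.7%) lower, with a median log2 ratio of -0.05. Over the genes with at least 20 UMIs the shares were 7.06% and 6.44%. In clusters 1 to 3 alone 397 genes were higher and 124 lower, and at 4-fold over all members 14 were higher and 82 lower, so the balance of the 2 directions turned with the fold. Most of these differences had the same sign outside the members. Of the 557 genes, 550 (98.7%) were also higher in the other male nuclei, where 28 of them were 2-fold higher, and of the 418 genes, 391 (93.5%) were also lower there, 111 of them 2-fold. The 28 shared genes were 5.03% of the members' list and 90.3% of the 31 genes called in the other nuclei, and the 111 were 26.6% and 63.8% of the 2 lists. The median log2 ratio of the 557 genes was 1.21 in the members and 0.63 in the other nuclei, and that of the 418 genes -1.36 and -0.56.

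**Figure D5:**
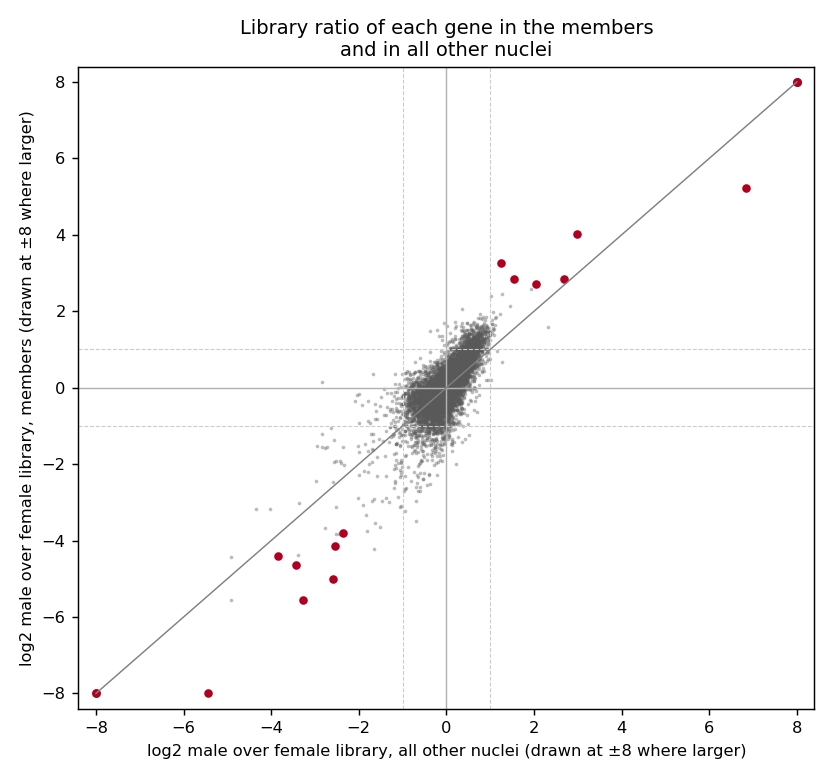
Log2 ratio of the male over the female library for each gene with at least 50 UMIs in the members and in all other nuclei, with the other nuclei on the horizontal and the members on the vertical axis, dashed lines at 2-fold, a solid line of equal ratios, and red points for 18 of the genes of highest and lowest ratio in the members. Ratios beyond 8 either way are drawn at 8, and all of the red points lie on the same side of 0 in members and other nuclei.

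The sex-linked genes went with the sex of each library. *Xist*, the RNA that silences an X chromosome in females, had 11.2 in the female members and 1 UMI in the male ones, and *Tsix*, its antisense gene, 3.44 and 1 UMI. *Uty* had 2.06 in the male members and no UMI in the female ones, which makes it at least 112-fold higher against a floor of 3 UMIs, and *Eif2s3y* and *Kdm5d* were at least 55.7-fold and 29.2-fold higher. *Ddx3y* had 80 UMIs in the male and 3 in the female members, a log2 ratio of 5.21 (3.62 to 7.52).

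The other genes highest in the male members included those of noradrenergic neurons. *Dbh*, which makes noradrenaline, had 0.0860 in the female and 1.40 in the male members, a log2 ratio of 4.03 (3.24 to 4.93) beside 2.97 (2.76 to 3.19) in all other nuclei. *Slc6a2*, the noradrenaline transporter, had 0.233 and 1.68, a ratio of 2.84 beside 2.68. *Th*, which makes the precursor of dopamine, had 7 and 48 UMIs, a ratio of 3.26 (2.10 to 4.64) beside 1.25. *Ddc* (2.85 beside 1.54) and *Slc18a2* (2.70 beside 2.04) followed. Each of these was also at least 2-fold higher in the male nuclei outside the members, and *Dbh* was higher in the male nuclei of clusters 1 (0.0915 and 1.51) and 2 (0.135 and 1.84) alike. Beside 7.06% and 6.44% of all genes, the neuron list had 6 of 15 genes 2-fold higher in the male members and 1 lower. Its median log2 ratio was 0.83, beside 0.43 in all other nuclei, with *Uchl1*, its most abundant gene, at 4.54 and 12.2. Its part in the ratios was not tested.

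The genes lowest in the male members beside *Xist* and *Tsix* included *Kcnd2*, *Gabra6*, *Prl*, *Trhde*, *Chn2*, *Fam135b* and *Adarb2*. *Kcnd2* had 10.2 in the female and 0.316 in the male members, a log2 ratio of -5.01 (-5.52 to -4.54) beside -2.58 in all other nuclei. In clusters 1 to 3 alone the ratio of *Kcnd2* was -2.16 (-2.95 to -1.45), since cluster 4 held most of its UMIs. Cluster 4 also held 164 of 179 UMIs of *Trhde*, 64 of 66 of *Fam135b*, 116 of 128 of *Adarb2*, 301 of 350 of *Chn2* and 69 of 73 of *Gabra6*, and in clusters 1 to 3 the ratio of *Chn2* was -0.82 (-2.05 to 0.34), within counting error. *Gabra6*, a GABA receptor subunit of cerebellar granule cells, had 73 and 0 UMIs. *Prl*, the pituitary hormone prolactin, had 2.16 and 0.103, a ratio of -4.39 beside -3.83, and in clusters 1 to 3 alone it was -4.21 (-5.29 to -3.29). Cerebellum and pituitary are not part of the labelled tissue, and their genes were on the female side in the other nuclei too. Beside 6.44% of all genes, the granule cell list had 5 of 8 measured genes 2-fold lower in the male members (median -3.29, beside -2.33). Its part in the ratios was not tested.

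Over clusters 1 to 3, *Dcn* had 26.9 in the female and 21.8 in the male nuclei, *Cldn1* 1.71 and 1.36, and *Col15a1* 3.24 and 2.67, log2 ratios of -0.30 (-0.39 to -0.21), -0.33 (-0.69 to 0.04) and -0.28 (-0.54 to -0.02). Over all members these ratios were 0.02, 0.13 and 0.03, each with an interval that held 0. *Ebf2* had 29.3 and 18.3, a ratio of -0.68 (-0.78 to -0.59). Beside the 7.06% and 6.44% of all genes called, 0 of 9 perineurial and 0 of 8 endoneurial genes were 2-fold apart in the members (medians -0.14 and -0.02), and of 9 fibrillar collagen genes 1 was lower (median -0.23). Of the 16 epineurial and adventitial genes 3 were lower (median -0.35), among them *Pi16* with 57 and 20 UMIs, a ratio of -1.03 (-1.85 to -0.28). *Eln*, which encodes elastin, had 0.749 and 0.162 (-2.21), and *Col14a1* 1.18 and 0.419 (-1.50), and in clusters 1 to 3 alone their ratios were -2.29 and -2.27, with -1.83 for *Pi16*. Cluster 3, which held most UMIs of *Col14a1* and *Pi16*, had a share of 12.4% among female and 5.76% among male members, and within it *Col14a1* had 9.37 and 3.69 and *Pi16* 2.89 and 1.93. *Pparg* had 4.51 and 1.80 in all members but 44.3 and 41.3 within the adipocyte-like cluster 6, whose share was 5.73% among female and 2.67% among male members.

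The other lists are given as the number of genes 2-fold higher and lower in the male members, beside 7.06% and 6.44% of all genes. Of 21 other collagens 0 were higher in the male members and 1 lower, of 18 proteoglycans 2 and 1, of 17 elastic fibre genes 0 and 4, of 26 adhesive matrix genes 0 and 2, of 25 proteases and inhibitors 0 and 3, and of 36 transcription factors 0 and 1. Of 30 Wnt genes 0 were higher and 5 lower, of 39 TGF-beta and BMP genes 0 and 3, of 28 complement and cytokine genes 1 and 3, of 33 hormone and nuclear receptor genes 1 and 3, of 41 axon guidance genes 1 and 4, of 19 iron handling genes 2 and 1, and of 9 ABCA transporters 0 and 0. Of 11 barrier and meningeal genes 0 were higher and 2 lower, and of 13 mitochondrially encoded genes 0 and 0. The growth factor list had 11 of 52 lower and 1 higher (median -0.35, beside -0.37 in all other nuclei). Its most abundant gene *Fgf14*, a modulator of neuronal sodium channels, had 15.8 and 3.22, a ratio of -2.30 that was -0.79 in clusters 1 to 3 alone. The immediate early and stress genes went the other way, with 4 of 21 higher and 0 lower (median 0.68, beside 0.26). The chaperone gene *Hsp90aa1* had 3.78 and 8.30, a ratio of 1.14 (0.99 to 1.28) beside 0.60, and *Hsph1* 0.596 and 1.57, a ratio of 1.40 beside 0.55.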

How the data were processed

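Nuclei of the ganglia were measured by droplet single-nucleus RNA-seq with 3' UMIs. The deposited matrix holds whole UMI counts per gene and nucleus, made by the authors with Cell Ranger (version 7.1.0 in the file header) on mm10 with intronic reads, and filtered by debris score with DIEM. The authors joined the libraries with the aggr function, which subsamples reads to equal mapped depth, so UMI totals and depth bins of the libraries are those after subsampling. The study credits its doublet removal to Cell Ranger together with DIEM. Of the deposited nuclei, 20 had no more than the 1000 UMIs that the study gives as its limit. No further nuclei were removed here and no doublet caller was run. The 2 libraries were told apart by the barcode suffix, whose nuclei numbers equal those the study states for each sex.

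Counts were summed over nuclei and given per 10000 UMIs with exact Poisson intervals. Ratios have exact conditional binomial intervals, and a gene was called at 2-fold with at least 50 UMIs. There was no test, because each sex has 1 library and the nuclei were chosen on these values. The log2 ratio calculation was run on simulated Poisson counts that held no variation between nuclei, clusters or mice. That run checks the calculation and not how reliable the calls in these data are. Where a group had no UMI, a floor of 3 UMIs over its members was used. The 22 gene lists and 8 cell type lists were counted at 20 UMIs in the members. Members and lists were chosen with earlier results of these data known. Genes were named by fixed rules: the rule genes and markers, up to 4 genes of each list with the most UMIs and 2 with the highest ratio, the 20 highest over all other nuclei with at least 100 UMIs, and 10 each way in the other comparisons. Further genes (*Ptch1*, *Ocln*, *Slc2a1*, *Dpp4*, *Eln*, *Col14a1*, *Hsph1* and others within clusters) were chosen after their values were seen. The results of a few genes that these rules name are not reported here.

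Clustering was added after seeing the data, with scanpy 1.11.5 (2000 variable genes, 15 components, 20 neighbours, Leiden resolution 0.3), leaving out 693 list genes and 713 genes shifted between libraries. Python 3.11.15, numpy 2.4.6, pandas 2.3.3, scipy 1.17.1 and matplotlib 3.10.9 were used.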

Additional observations from a re-analysis of the deposited data

How the results depend on the processing

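No paired analysis was possible because each sex has 1 library and no result comes from a test. The share of each library moved with the rule. It was 11.9% for females and 7.84% for males at 6 UMIs of the rule genes, 15.8% of the female library at 10 per 10000, 10.6% and 7.09% at 30 per 10000, and 8.22% of the male library over 2000 UMIs, where 608 members were left. Without *Abi3bp* it was 12.6% and 8.49%, without *Itgbl1* 12.4% and 8.41%, without *Gpc3* 8.67% of the male library, and without *Ebf2* 9.52% and 6.56% (684 members). With members left out whose markers of another cell type exceeded the rule genes it was 9.81% and 3.21% (530 members), with 306 genes higher in the male library. Thinned to 1000 UMIs per nucleus it was 9.62% and 5.65% (641 members). In each of these settings the female share was the larger.

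Genes lower in the male library numbered 254 at 30 per 10000 and 271 without *Ebf2*. Thinned, 642 genes were higher than in all other nuclei, 361 higher than in *Col25a1*-led nuclei, 376 higher and 300 lower than in barrier nuclei, and 207 higher and 95 lower in the male library. In male nuclei alone 420 were higher than in barrier nuclei. At 20 UMIs in place of 50, 1015 were higher and 591 lower than in *Col25a1*-led nuclei, 1100 higher than in barrier nuclei, and 849 higher and 774 lower in the male library. At 200 UMIs the counts higher and lower were 901 and 1273 against all other nuclei, 265 and 219 against *Col25a1*-led nuclei, 325 and 256 against barrier nuclei, and 222 and 129 in the male library. At 4-fold they were 370 and 819, 187 and 118, 169 and 222, and 14 and 82. In clusters 1 to 3 alone, a setting added after seeing the data, the shares were 10.1% and 8.29%, with 3388 genes lower than in all other nuclei, 691 lower than in *Col25a1*-led nuclei and 124 lower in the male library, and *A530053G22Rik* reversed, to -0.45 over all other nuclei. The other 143 counts and shares stayed within 1.5 times or within their interval. Of the levels and ratios of single genes and lists, 918 stayed within their interval (medians of lists within 0.5 on the log2 scale), 238 moved further and 1, that of *A530053G22Rik*, reversed. Reversed here means that a ratio of at least 2-fold changed sign, and a smaller ratio that changed sign is counted by how far it moved. The male over female ratios of *Dcn*, *Cldn1* and *Col15a1*, not among these results, were above 0 over all members and below 0 in clusters 1 to 3 alone. The cause of these moves was not tested.

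At resolution 0.5, 324 of the 432 nuclei of cluster 1 and at least 95.9% of each other cluster stayed together, and at 0.7, 47.0% of cluster 1. With all genes kept, clusters 5 and 7 merged.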
